A study of Mus musculus with 13 samples.

Results

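Acetyl and methyl groups on histone tails are added by acetyltransferases and methyltransferases, removed by deacetylases and demethylases, and bound by bromodomain proteins. Polycomb repressive complex 2 methylates histone H3 at silenced genes, and SWI/SNF remodellers move nucleosomes and often work beside acetylated chromatin. In gonadotropes, the pituitary cells that make the gonadotropins, activin acts through SMAD2 and SMAD3, which recruit acetyltransferases such as Ep300 and Crebbp to chromatin. The 56 genes described here code for such enzymes and their partners: 9 acetyltransferases, 13 deacetylases, 4 nuclear receptor coregulators, 13 demethylases, 5 H3K4 methyltransferase family members, 4 Polycomb repressive complex 2 members, 2 other methyltransferases, 2 bromodomain readers and 4 SWI/SNF members. They were chosen by name. A peak was counted at one of them when the deposited annotation gave it that gene name and placed it within 100 kb of that gene's annotated start. Of 186391 merged regions of the series, 599 met this rule: 34 of 8602 SMAD2/3 regions, 399 of 124781 FOXL2 regions and 166 of 53008 H3K27ac regions. Any region at all was found at 21 of the 56 genes for SMAD2/3, at 52 for FOXL2 and at 44 for H3K27ac, and 3 genes (Eed, Hdac6 and Kmt2d) had none.

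The regions come from chromatin immunoprecipitation and sequencing in LβT2, a mouse gonadotrope line. All samples carried a lentiviral cassette with constitutive GFP and doxycycline-inducible FLAG-mFoxL2, a tagged form of the forkhead factor FOXL2, so that FOXL2 here means the induced tagged protein. All had 24 h of recovery, 48 h of doxycycline and 2 h in 2% serum, and were then exposed for 1 h to activin A (1 nM) or to vehicle alone. SMAD2/3, FLAG and acetylated lysine 27 of histone H3 (H3K27ac, a mark of active starts and enhancers) were each precipitated from 2 vehicle and 2 activin samples, each made of 3 pooled plates, and no source says that the 2 came from separate cultures. As for cell type, 7 gonadotrope genes were examined. H3K27ac lay at a RefSeq start in all 4 libraries for 6 (Cga, Lhb, Gnrhr, Nr5a1, Pitx1 and Egr1) and in none for Fshb. It lay there in no library for Ghrhr, Prl, Pomc, Tbx19, Tshb and Pax7, which mark other pituitary cells. The start of Gh, another such gene, was not placed.

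Only peak lists were used, so the number of reads behind a list is unknown. The SMAD2/3 lists held 605 and 144 peaks after vehicle and 7784 and 5970 after activin, the FOXL2 lists 83834 to 97701, and the H3K27ac lists 38995 to 41763. Peaks at the 56 genes made up 0.661% and 0.694% of the vehicle and 0.411% and 0.402% of the activin SMAD2/3 lists (4, 1, 32 and 24 peaks), 0.325% to 0.343% of the FOXL2 lists and 0.265% to 0.323% of the H3K27ac lists. The deposited tables use 1 start per gene, and for these genes that start is often not the one RefSeq gives. It lay within 1 kb of a RefSeq start for 20 of the 51 members where both were known, against 73.2% of 13577 protein-coding genes, and 28 members were off by more than 10 kb. Counts at starts are therefore given for both. An exact permutation test of 2 libraries against 2 cannot give a two-sided p under 0.333, so no p-value is given, and differences between treatments are described by whether the 2 activin libraries both lie outside the 2 vehicle libraries. Intervals of shares are 95% Wilson intervals. They cover counting error only, and neighbouring regions are not independent.

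The starts of most of these genes were acetylated after vehicle and after activin alike. An H3K27ac peak lay within 1 kb of a RefSeq start in all 4 libraries for 43 of 55 members (78.2%, 65.6 to 87.1), against 45.8% of all protein-coding genes. With the deposited starts the count was 16 of 56 (28.6%, 18.4 to 41.5), against 26.2% of all genes of the tables and 39.3% of the protein-coding ones. By role, the mark was at a RefSeq start in all 4 libraries for 7 of 9 acetyltransferases, 3 of 4 coregulators, 11 of 13 demethylases, all 5 H3K4 methyltransferase family members, 3 of 4 Polycomb genes, both other methyltransferases, both bromodomain readers and all 4 SWI/SNF genes, and for 6 of the 12 deacetylases placed. The genes with no H3K27ac at a RefSeq start in any of the 4 libraries were the class II deacetylases Hdac7 and Hdac9, the NAD-dependent deacetylase Sirt2, the coactivator Ncoa2 and the Polycomb methyltransferase Ezh1. Another 7 genes had it in some libraries: Crebbp, Hdac5 and Kdm5b in 3, Kat2a and Kdm2a in 2, and Hdac11 and Sirt1 in 1. The start of Hdac1 was not placed.

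**Figure D1:**
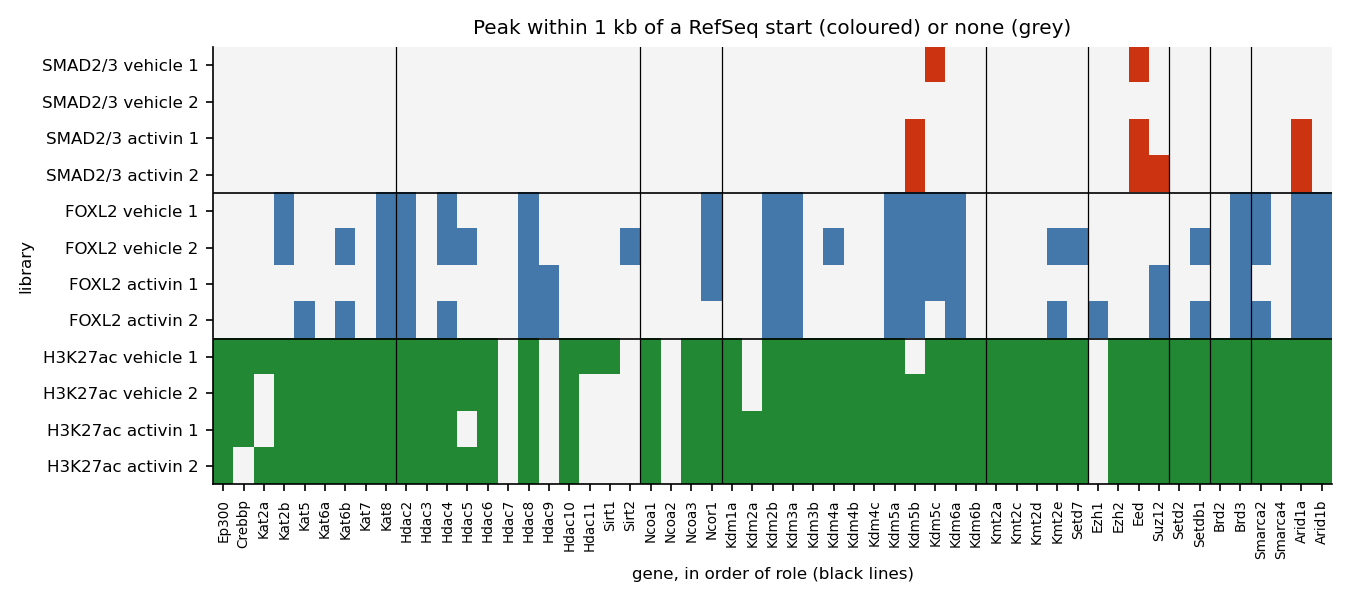
Peaks at the RefSeq starts of 55 members (columns, in order of role) in the 12 libraries (rows). A coloured cell is a peak within 1 kb of a start, and a grey cell is none. H3K27ac fills all 4 rows for 43 genes, FOXL2 for 11, and SMAD2/3 reaches both activin rows for 3.

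Among regions found in all 4 libraries of an antibody, each library's regions were ranked by the authors' −log10 q, with 100 for the strongest. These ranks are percentiles over lists of equal length, whereas a fold enrichment describes a peak within its own list, so folds of several lists stand side by side with no test. Acetylated regions of all 4 libraries within 1 kb of a member's RefSeq start numbered 61, at 43 genes, since 17 genes had more than 1. In the deposited tables no peak of 35 of the 61 was assigned to the member under the rule, so 26 are among the 166 H3K27ac regions of the rule. The median mean rank of the 61 was 68.5, against 56.4 over 10208 such regions at starts of all protein-coding genes, and 12 of them ranked 90 or more. The strongest was at Brd2, a bromodomain reader of acetylated histones, with ranks of 99.8 and 99.8 after vehicle and 99.6 and 99.8 after activin. Both activin ranks lay above both vehicle ranks at 13 of the 61 regions (21.3%) and below at 17 (27.9%), against 23.7% and 23.4% of all start regions. Among the 13, the widest shift was at Kdm3a, described below. Setd2, which trimethylates lysine 36 of H3, had ranks of 58.6 and 36.7 after vehicle and 77.7 and 67.8 after activin. At Kat2b, an acetyltransferase of the SAGA type, they were 78.3 and 67.0 after vehicle and 95.8 and 95.7 after activin. At Kat8, the acetyltransferase of H4 lysine 16, they were 22.7 and 10.6, and then 27.1 and 38.6. Hdac6 and Ezh2 regions came between Kat2b and Kat8, with mean shifts of 21.7 and 21.1 rank points. These shifts were ordered among regions whose groups did not overlap; the Setd2, Kat2b, Hdac6 and Ezh2 regions carry a neighbour's name in the deposited tables. In the other direction, under the same limit, Kdm2b had ranks of 63.0 and 79.5 after vehicle and 43.4 and 42.0 after activin, Kdm4b 45.8 and 47.8 and then 16 and 34.4, and Hdac3 57.1 and 66.2 and then 34.1 and 53.8. Setd7, Kmt2c and Kdm3b followed, with mean shifts of -12.6, -10.1 and -7.84 rank points. Of these 6, the Hdac3 and Kdm3b regions alone were named after the member in the deposited tables.

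FOXL2 was at a RefSeq start in all 4 libraries for 11 of 55 members (20%, 11.6 to 32.4), against 6.83% of protein-coding genes. With the deposited starts it was 7 of 56 (12.5%, 6.19 to 23.6), against 7.6% of all genes and 7.18% of the protein-coding ones. The 11 genes were Kat8, Hdac2, Hdac8, Kdm2b, Kdm3a, Kdm5a, Kdm5b, Kdm6a, Brd3, Arid1a and Arid1b, 5 of them demethylases. Regions of all 4 libraries at these starts numbered 11, at 9 of the genes, and 4 of them carry a neighbour's name in the deposited tables. A Kdm6a region, named after Dusp21 there (Kdm6a, or UTX, removes methyl groups from H3 lysine 27) was the strongest, with authors' fold enrichments of 28.9 and 25.1 after vehicle and 30.9 and 29.4 after activin. At Kdm2b, a demethylase of H3 lysine 36, the folds were 4.69, 3.53, 2.43 and 4.42, the lowest of the 11 by mean rank. The vehicle and activin libraries overlapped in rank at 7 of the 11. Of the others, 2 ranked higher and 2 lower after activin (18.2% each), against 18.8% and 26.5% of 1455 FOXL2 start regions.

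SMAD2/3 was at a RefSeq start in both activin libraries for 3 of 55 members (5.45%, 1.87 to 14.9), against 0.727% of protein-coding genes. They were Kdm5b, a demethylase of H3 lysine 4, Arid1a, a subunit of SWI/SNF, and Eed, the Polycomb subunit that binds methylated lysine 27. Kdm5b had 2 neighbouring SMAD2/3 regions, chr1:134559586-134559914 with folds of 9.46 and 6.58 and chr1:134559943-134560227 with 5.27 and 5.64, and neither had a vehicle peak. The deposited tables named both after the neighbour Mgat4e, so they are not among the 34. Eed had a peak in the first vehicle library too, with folds of 4.35 after vehicle and 2.63 and 4.66 after activin.

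Upstream sequence is in RefSeq's table for 44 members (GRCm38.p6, 62 starts). The 250 bases before the start are printed for 4 genes whose FOXL2 summits fell inside that window: Kdm5b, where SMAD2/3 and FOXL2 summits met, Hdac8 and Kdm6a, which hold a forkhead match, and Kat8, which holds none. Kat2b and Setdb1, in 2 libraries each, and Kdm5c and Ncor1, in 3 each, also had FOXL2 summits in such a window. Those windows hold no forkhead match and are not printed. Arid1a, Ezh1, Hdac5, Kat5, Kdm2b, Setd7 and Sirt2 had such a summit in a single library, and these windows are not printed either. Among them only the Kdm2b window, with a summit at -183 in the first vehicle library, holds a match. Another Kat8 window holds a match but no FOXL2 peak. Capitals mark a match to the forkhead pattern GTNAACA or its reverse TGTTNAC.
Kdm5b, chr1:134559928-134560177, plus strand: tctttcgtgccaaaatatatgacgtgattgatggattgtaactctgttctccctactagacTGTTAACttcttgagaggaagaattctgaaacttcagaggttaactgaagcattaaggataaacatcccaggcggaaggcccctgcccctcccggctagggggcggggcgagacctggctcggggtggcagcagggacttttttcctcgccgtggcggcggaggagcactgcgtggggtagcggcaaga
Hdac8, chrX:102505159-102505408, minus strand: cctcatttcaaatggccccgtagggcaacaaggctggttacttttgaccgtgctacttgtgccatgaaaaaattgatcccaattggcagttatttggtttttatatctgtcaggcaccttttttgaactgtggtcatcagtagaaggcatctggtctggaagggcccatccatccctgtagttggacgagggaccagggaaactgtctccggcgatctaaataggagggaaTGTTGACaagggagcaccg
Kdm6a, chrX:18162325-18162574, plus strand: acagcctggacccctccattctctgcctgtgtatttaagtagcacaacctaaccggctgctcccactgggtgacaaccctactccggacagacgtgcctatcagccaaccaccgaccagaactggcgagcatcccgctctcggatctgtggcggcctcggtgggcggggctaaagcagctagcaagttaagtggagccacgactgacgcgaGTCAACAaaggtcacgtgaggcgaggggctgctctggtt
Kat8, chr7:127912267-127912516, plus strand: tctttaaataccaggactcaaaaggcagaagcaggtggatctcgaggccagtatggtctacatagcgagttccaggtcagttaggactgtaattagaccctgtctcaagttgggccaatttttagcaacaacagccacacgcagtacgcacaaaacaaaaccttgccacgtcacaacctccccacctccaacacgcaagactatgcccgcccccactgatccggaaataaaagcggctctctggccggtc

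In the Kdm5b window the SMAD2/3 summits lay at -24 and -101 from the start in the 2 activin libraries, and the FOXL2 summits at -55, -87 and -70 in 3 libraries, while the forkhead match began at -189. At Hdac8, a class I deacetylase, the FOXL2 summits lay between -191 and -219 in the 4 libraries and the match began at -19. These positions count from the RefSeq start at 102505158. Another RefSeq start, at 102505381, lies inside the FOXL2 region chrX:102505210-102505560. At this Kdm6a start, 1 of several, the summits were at -105 and -106 in 2 libraries and the match began at -39. The folds were 3.99 in the second vehicle library and 3.75 in the first activin library. This start is at 18162575, and the strongest Kdm6a FOXL2 region named above lies at another, at 18160862. In none of these 3 windows, of Kdm5b, Hdac8 and Kdm6a, did a summit lie on the printed match. Over all members' windows, the forkhead pattern was in 9 of 62 (14.5%), against 8.69% of 32851 promoters of the same length. The SMAD box CAGAC or GTCTG, searched on both strands, was in 23 of 62 (37.1%), against 42.2%, and the AP-1 pattern TGANTCA in 6 of 62 (9.68%), against 6.75%. A match is a description of letters and not a bound site.

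The SMAD2/3 regions that met the rule were found mainly after activin, as were SMAD2/3 regions in general. They leave out the Kdm5b and Eed regions at starts, which carry a neighbour's name in the deposited tables. Of the 34 SMAD2/3 regions, 21 were found in both activin lists and in neither vehicle list (61.8%, 45 to 76.1), against 54% of all SMAD2/3 regions. None was found in both vehicle lists alone, against 0.0233%, 1 was in all 4 lists, against 1.53%, and 23 were in both activin lists, against 60%. The lists differ in length, and when each was cut to the 144 strongest peaks, the length of the shortest, 1 activin-only region was left. That cut drops most of the 7784 and 5970 activin peaks, so it cannot show how much of the count comes from list length. The same cut over all SMAD2/3 regions was not made. The 23 regions lay at 18 genes (32.1% of 56, 21.4 to 45.2), against 11.6% of 28146 genes in the tables, 11.2% of 15380 protein-coding genes and 12.2% of 9261 genes whose RefSeq start was acetylated in all 4 libraries (13 of 43 members there, 30.2%). The 18 genes were 3 of 9 acetyltransferases, 3 of 13 deacetylases, 1 of 4 coregulators, 5 of 13 demethylases, 2 of 5 H3K4 methyltransferase family members, 2 of 4 Polycomb genes and 2 of 4 SWI/SNF genes, and none of the bromodomain readers and other methyltransferases. Members are long genes: their median RefSeq length was 63.7 kb, against 22.7 kb over 14122 protein-coding genes, and it was 77.8 kb for the 18 genes and 49.1 kb for the other 38. The part of gene length in the share was not tested.

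By the deposited classes, 16 of the 23 regions were in introns, 4 were intergenic, 2 were at annotated starts and 1 was in an exon. The region overlapped the member's own RefSeq gene in 15 cases. In 8 it did not: the Ezh2 region lay in an intron of Cul1, the Hdac11 region in Nup210, the Kdm4a region in St3gal3 and the Hdac7 region in Vdr, and the Kdm3a and Suz12 regions lay upstream of their genes. For these regions the gene name says which start was nearest and not which gene the region acts on.

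**Figure D2:**
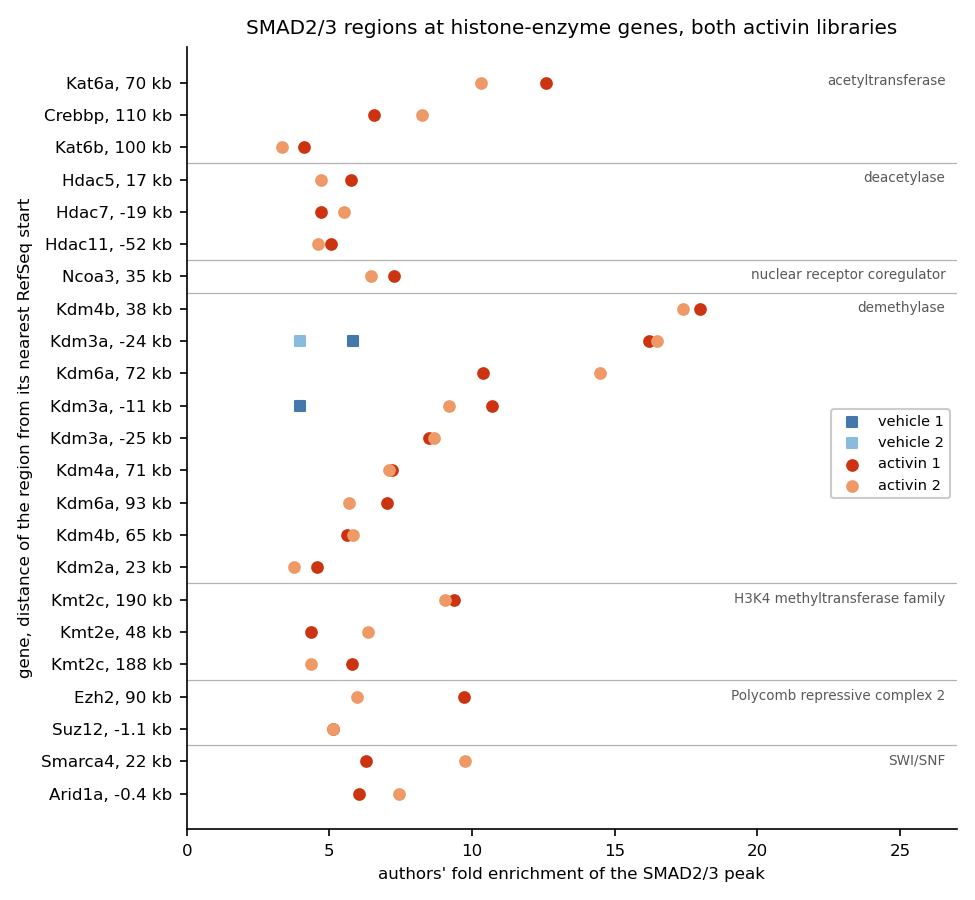
Authors' fold enrichment (x axis) of the 23 SMAD2/3 regions found in both activin lists, grouped by role. Circles are the 2 activin libraries and squares the vehicle libraries that had a peak. Only 2 Kdm3a regions have a vehicle peak, and the Kdm4b region at 38 kb and the Kdm3a region at -24 kb have the highest folds.

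The acetyltransferase genes with SMAD2/3 in both activin lists were Kat6a and Kat6b, the paired MYST acetyltransferases, and Crebbp. The Kat6a region, in an intron 69.6 kb into the gene (chr8:22928841-22929315), had folds of 12.6 and 10.3. The Crebbp region (chr16:4103092-4103403) had folds of 6.58 and 8.24 and lay in an intron 110 kb from the nearest RefSeq start. Kat6b had a weaker one, with folds of 4.11 and 3.33, at 100 kb. No SMAD2/3 region was assigned to Ep300, the paralog of Crebbp. Among coregulators, Ncoa3, a coactivator of nuclear receptors, had an intronic region (chr2:166027518-166027872) with folds of 7.25 and 6.45.

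Demethylases held 9 of the 23 regions and the strongest of them. An intron of Kdm4b, a demethylase of H3 lysine 9, held chr17:56363227-56363664 with folds of 18 and 17.4, places 129 and 144 in the activin lists by −log10 q. A weaker Kdm4b region, 64.8 kb from its start, had folds of 5.60 and 5.82. Kdm6a had an intronic region (chrX:18233949-18234205) with folds of 10.4 and 14.5. No vehicle list had a peak at any of these 3 regions. Kdm3a had 3 regions and is described below.

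In the H3K4 methyltransferase family, the Kmt2c region chr5:25309029-25309408 had folds of 9.36 and 9.05. Kmt2c codes for a catalytic subunit of enhancer methylation complexes, and the region lay 190 kb from its nearest RefSeq start although the deposited class was a start. The Ezh2 region (chr6:47505230-47505728) had folds of 9.71 and 5.95, and the SWI/SNF ATPase gene Smarca4 had an intronic region (chr9:21637735-21637957) with 6.28 and 9.74. The other 11 regions, at Suz12, Hdac5, Hdac7, Hdac11, Kat6b, Kdm2a, Kdm4a, Kdm6a, Kmt2c, Kmt2e and Arid1a, had folds from 3.33 to 7.45 and no vehicle peak. A further 11 of the 34 regions were in 1 activin list at most, among them a Kdm6b region with folds of 6.94 in the first vehicle list and 5.38 in the first activin list, and a Kdm5c region found in the first vehicle list only.

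When SMAD2/3 regions were assigned to the nearest RefSeq start instead, 28 regions found in both activin lists fell at 19 of 55 members (34.5%), against 12.3% of protein-coding genes. This assignment was chosen after the mismatch of starts was seen. Of the 28 regions 16 were among the 23, and 12 were not. The genes shared 14 names. Crebbp, Hdac11, Kdm2a and Kdm4a dropped out, and Arid1b, Eed, Hdac4, Kdm5b and Ncor1 came in. Ezh2 and Kmt2c stayed through other regions, and none of their regions among the 23 was among the 28. The strongest region brought in was in Kmt2c, chr5:25478867-25479252, with folds of 20.4 and 15.9 and no vehicle peak. The first of these is above the fold of each of the 23 regions, and the second is below those of the strongest Kdm4b and Kdm3a regions.

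Most of the 23 regions coincided with FOXL2 and with acetylation. FOXL2 regions of both activin lists were met by 21 (91.3%, 73.2 to 97.6), against 82% of all SMAD2/3 regions in both activin lists. H3K27ac regions in both activin lists were met by 17 (73.9%, 53.5 to 87.5), against 76.7%. Both were met by 16 regions and FOXL2 alone by 5, at Hdac7, Suz12, Kmt2c and, with 2 regions, Kdm6a. The weaker Kdm4b region met H3K27ac alone and the Arid1a start met neither. The interval of each share held the share over all SMAD2/3 regions.

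Acetylated regions at the members differed by whether SMAD2/3 was near, as acetylated regions in general did. Of 166 H3K27ac regions, 91 were in both activin lists (55.2% of all), and 16 of these 91 overlapped SMAD2/3 (17.6%, 11.1 to 26.7; 12.2% of all). Of the 166 regions, 8 were in both activin lists and neither vehicle list (4.82%, 2.46 to 9.22; 5.84% of all) and 6 were in both vehicle lists and neither activin list (3.61%, 1.67 to 7.66; 6.79% of all). With 1 library left out the rule asks less, so the counts can rise by construction. Activin-only regions then numbered 14 and 9 without vehicle replicates 1 and 2, and 22 and 34 without activin replicates 1 and 2. Vehicle-only regions numbered 16, 23, 13 and 6 in the same order. The same counts over all regions were not made. The 8 activin-only regions belonged to 8 genes. At Smarca4 the folds were 3.58 and 3.5 (chr9:21637155-21638631), at Kdm4a 4.59 and 3.18, at Kmt2c 3.34 and 3.20, at Kdm2a 2.97 and 3.39 and at Ezh2 3.05 and 3.25, and Crebbp, Hdac11 and Kat6a held the others. Of the 8, 4 overlapped a SMAD2/3 region found in both activin lists, against 15.2% of all activin-only H3K27ac regions, and 7 lay within 1 kb of a SMAD2/3 region of any activin list, against 42.3%. The Kdm2a region was the exception, at 3357 bp. The 6 vehicle-only regions, 3 at Kat6b, 2 at Kdm4a and 1 at Kmt2a, all lay at least 13275 bp from such a region, and 4.56% of all vehicle-only regions lay within 1 kb.

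**Figure D3:**
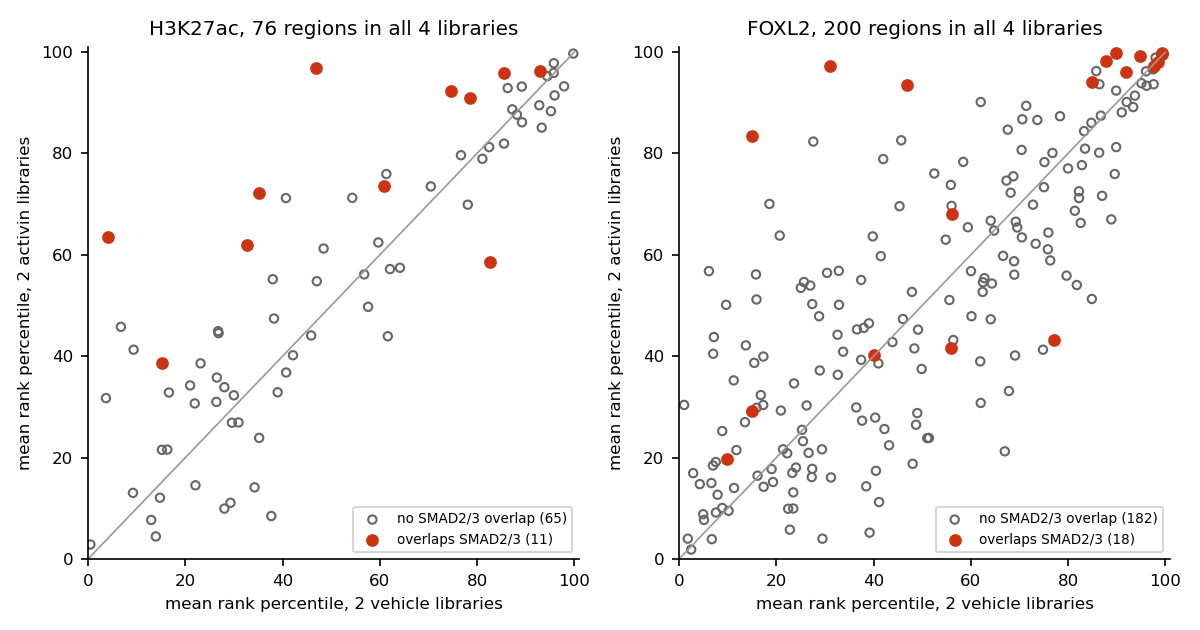
Mean rank percentile after vehicle (x axis) and after activin (y axis) of the member regions found in all 4 libraries, for H3K27ac (76 regions, left) and FOXL2 (200 regions, right). Filled points overlap a SMAD2/3 region of both activin lists, and the line marks equal ranks. In the H3K27ac panel 10 of the 11 filled points lie above the line, and the Kat6b region lies below it.

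H3K27ac regions in all 4 lists numbered 76 of 166 (45.8%; 45.9% of all). Both activin ranks lay above both vehicle ranks at 28 (36.8%, 26.9 to 48.1; 27.9% of all 24356) and below at 17 (22.4%, 14.5 to 32.9; 30.4% of all). Among the 11 that overlapped SMAD2/3 the counts were 10 above (90.9%, 62.3 to 98.4; 65% of all such regions) and 1 below (16.6% of all). Among the 65 that did not they were 18 above (27.7%, 18.3 to 39.6; 22.9% of all) and 16 below (24.6%; 32.2% of all). By role, 11 of 23 demethylase regions, 6 of 13 acetyltransferase regions, 5 of 11 deacetylase regions and 3 of 4 H3K4 methyltransferase family regions ranked higher in both activin libraries, and none of 9 SWI/SNF regions did.

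The Crebbp region chr16:4102191-4103130, in an intron, moved farthest, from ranks of 3.82 and 4.23 after vehicle to 68.8 and 58.3 after activin, and its folds went from 2.51 and 2.49 to 4.76 and 4.19. It meets the Crebbp SMAD2/3 region above. The Kdm4b region chr17:56358698-56366040, which spans the Kdm4b SMAD2/3 region, had ranks of 49.4 and 44.2 after vehicle and 96.9 and 96.7 after activin, with folds of 4.10 and 3.59 and then 8.37 and 8.06. At both, the vehicle and activin libraries were far apart and each pair of libraries was close. An exon region of Kmt2e (chr5:23481929-23482939) went from 2.43 and 11.1 to 40.7 and 50.9, and the Hdac11 region chr6:91101753-91109513, in Nup210, from 28.5 and 41.9 to 76.1 and 68.5. The Ezh2, Kdm3a and Kdm2a regions that followed had mean shifts of 31.9, 30.5 and 29.3 rank points. The largest falls in rank were at Arid1b, from 53.9 and 21.5 to 13.2 and 3.79, and at Kat6b.

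**Figure D4:**
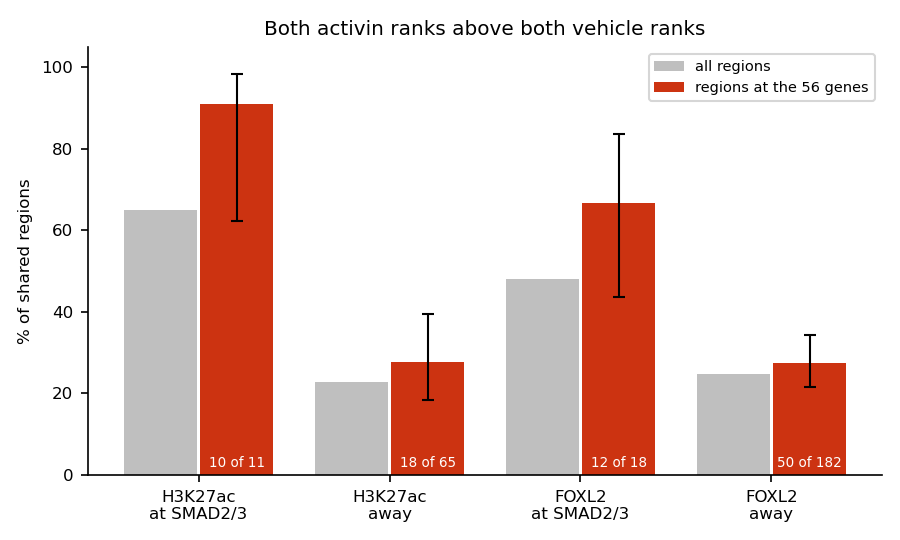
Share of regions found in all 4 libraries whose 2 activin ranks both lie above the 2 vehicle ranks (y axis, %), for all regions of the genome (grey) and for regions at the 56 genes (red, with 95% Wilson intervals). Shares are higher at SMAD2/3 than away from it for both antibodies, in the members (90.9% against 27.7% and 66.7% against 27.5%) as in all regions.

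FOXL2 had the most regions of the 3 targets at these genes, and many of them were in every list. Of 399 regions, 266 were in both activin lists (66.7%, 61.9 to 71.1; 64.2% of all), 21 of which overlapped SMAD2/3 (7.89%, 5.22 to 11.8; 5.22% of all). In all 4 lists there were 200 (50.1%, 45.2 to 55; 46.8% of all), while 27 were activin-only (6.77%, 4.69 to 9.67; 8.95% of all) and 9 vehicle-only (2.26%, 1.19 to 4.23; 3.22% of all). Under the looser rule with 1 library left out, activin-only regions numbered 56 and 38 without vehicle replicates 1 and 2. They numbered 51 without either activin replicate. Vehicle-only regions numbered 29, 21, 20 and 19 without vehicle replicates 1 and 2 and activin replicates 1 and 2. The genes with most regions in all 4 lists were Kat6b with 18, Kdm3a with 12, Kdm6a and Ncoa3 with 11 each and Crebbp with 10. Demethylases held 117 of the 399 FOXL2 regions, Kdm4c 18 of them and Kdm6a 28. Activin-only regions were at 17 genes. Of the 27, 14 were among the 117 demethylase regions, 5 of them at Kdm4c, a demethylase of H3 lysine 9, and 4 at Kdm6a. Over all FOXL2 regions the activin-only share was 8.95%. Acetyltransferases and coregulators held 3 each, deacetylases, Polycomb genes and SWI/SNF genes 2 each, and the H3K4 methyltransferase family 1. Whether the roles differ was not tested. The strongest by −log10 q were in Cul1 (assigned to Ezh2, chr6:47494879-47495222), with folds of 11.4 and 7.04, at Crebbp with 7.52 and 7.22, at Kdm6a with 9.09 and 5.95, at Kdm4c with 8.10 and 7.94 and at Kdm2b with 4.55 and 7.40. Of the 27, 2 overlapped a SMAD2/3 region of both activin lists (7.41%, 2.06 to 23.4; 3.14% of all activin-only FOXL2 regions), at Kdm4b and Smarca4. At this intronic Smarca4 site the overlapping SMAD2/3, FOXL2 and H3K27ac regions were thus all activin-only. Elsewhere at the gene they were not: 2 of its 3 H3K27ac regions were in all 4 lists, and 1 of its 5 FOXL2 regions was activin-only. The vehicle-only regions with the highest −log10 q were at Ncoa3, with folds of 4.17 and 4.16, and at Hdac11, with 3.5 and 5.75.

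Of the 200 FOXL2 regions in all 4 lists, 62 ranked higher (31%, 25 to 37.7; 26.1% of all 58444) and 47 lower (23.5%, 18.2 to 29.8; 33.1% of all) in both activin libraries. At SMAD2/3 12 of 18 ranked higher (66.7%, 43.7 to 83.7; 48% of all such regions) and 1 lower (23.6% of all). Away from it 50 of 182 ranked higher (27.5%, 21.5 to 34.4; 24.7% of all) and 46 lower (25.3%; 33.7% of all). Demethylase regions ranked higher in 25 of 57 cases and lower in 12, and acetyltransferase regions in 14 and 15 of 49. The largest upward shift was at Kdm3a. The Kdm6a region chrX:18233770-18234332, at the stronger Kdm6a SMAD2/3 region, had folds of 13.0 and 2.24 after vehicle and 47.4 and 42.5 after activin. The vehicle libraries differed widely there, and both lay below both activin libraries. At Suz12, the Polycomb subunit needed for methylation of lysine 27, an intronic region had folds of 8.86 and 3.19 and then 18.7 and 16.9. The Ncoa3 region at its SMAD2/3 region had 6.10 and 6.09, and then 19.0 and 16.4. The largest falls in rank were at Kdm3b, a demethylase of H3 lysine 9, with folds of 9.42 and 10.2 after vehicle and 4.33 and 4.91 after activin, and at Kat6b.

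Kdm3a, a demethylase of mono- and dimethylated H3 lysine 9, had the most SMAD2/3 of the members: 3 regions in both activin lists, all upstream of the gene. The region chr6:71657206-71657660, 24.4 kb upstream, was the only one of the 34 found in all 4 SMAD2/3 lists, with folds of 5.82 and 3.97 after vehicle and 16.2 and 16.5 after activin, and it stood at places 33 and 41 of the activin lists. Its neighbour chr6:71658117-71658734 had 8.49 and 8.68 after activin and no vehicle peak, and the region 11.4 kb upstream had 3.98 in the first vehicle list and 10.7 and 9.18 after activin. FOXL2 at the first of these, chr6:71657074-71657663, had folds of 3.91 and 3.86 after vehicle and 14.9 and 11.7 after activin, with ranks of 12.6 and 17.6 and then 85.1 and 81.9. The acetylated region around it, chr6:71655058-71662929, had ranks of 89.3 and 81.6, and then 94.9 and 97.0. At this place each activin library thus stood above each vehicle library in all 3 readouts. The strongest FOXL2 region of the gene, inside it at chr6:71612257-71613220, had folds of 51.1 and 41.0 after vehicle and 46.4 and 42.0 after activin, and its groups overlapped. At the start, 2 acetylated regions were in all 4 lists. The groups overlapped in chr6:71633105-71634021, on the upstream side, with ranks of 97.0 and 94.5, and then 94.5 and 97.3. They did not in chr6:71630475-71632688, which reaches from the start into the gene, with 40.9 and 40.5, and then 66.7 and 75.7.

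**Figure D5:**
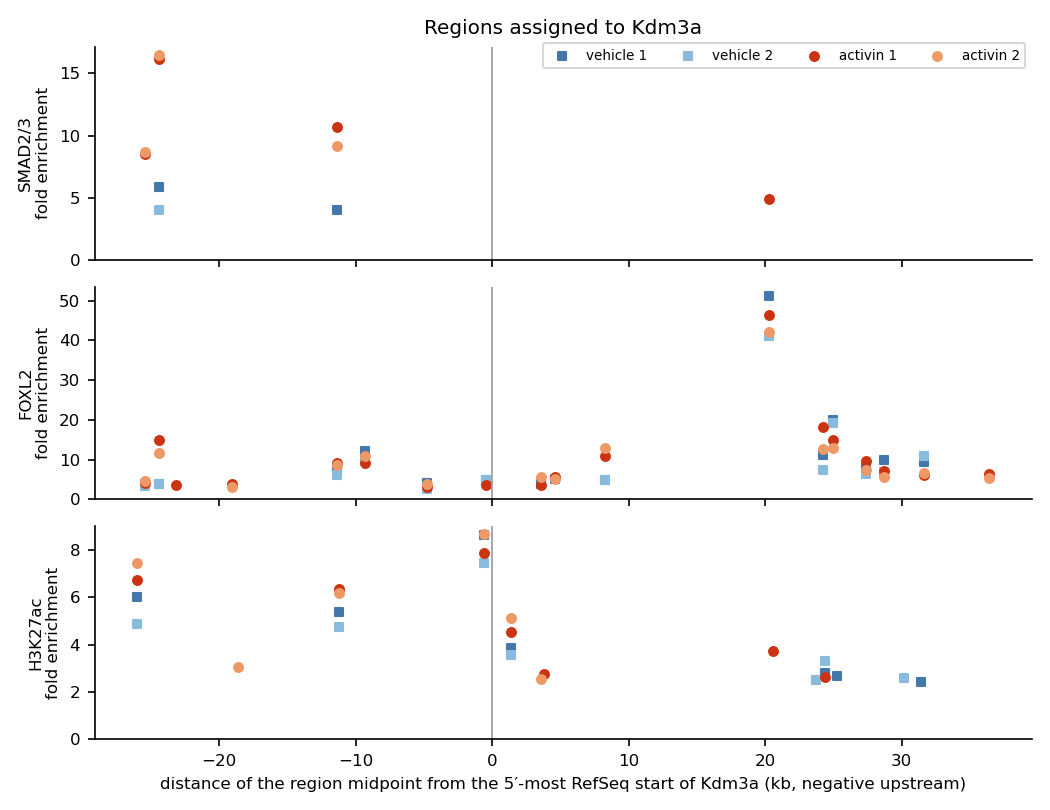
Authors' fold enrichment (y axes) of the regions assigned to Kdm3a by distance of the region's midpoint from the 5′-most RefSeq start (x axis, kb, negative upstream), for SMAD2/3, FOXL2 and H3K27ac. Squares are vehicle and circles activin libraries. The upstream SMAD2/3 regions have activin folds of 8.49 to 16.5, and the FOXL2 region with folds over 40 lies inside the gene and has no SMAD2/3 region of both activin lists.

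Kat6b showed the opposite order at its SMAD2/3 region. The gene had the most FOXL2 and the most H3K27ac regions of the members, 30 and 21. SMAD2/3 was activin-only at chr14:21599576-21599917, with the lowest folds of the 23 regions. The acetylated region around it, chr14:21597924-21601705, had ranks of 86.5 and 78.7 after vehicle and 68.6 and 48.5 after activin, and the FOXL2 region chr14:21599331-21600045 had folds of 13.2 and 12.4 and then 5.46 and 7.72. In both cases the 2 activin libraries lay below the 2 vehicle libraries. It was the only member region at SMAD2/3, of 11 for H3K27ac and of 18 for FOXL2, that ranked lower in both activin libraries. Kat6b also held 3 of the 6 vehicle-only H3K27ac regions.

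Another 61 genes of histone modification and remodelling served for comparison. SMAD2/3 in both activin lists was assigned to 9 of them (14.8%), near the 11.6% of all genes, against 18 of the 56. The 9 included Smyd3 and Jarid2, with 2 SMAD2/3 regions each in the lists. H3K27ac was at a RefSeq start in all 4 libraries for 51 of the 57 placed (89.5%), against 43 of 55 members, and FOXL2 for 5, against 11. Both sets were listed with earlier results of these data known, so the difference in SMAD2/3 is a description.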

How the data were processed

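The 12 libraries are 2 vehicle and 2 activin samples for each of 3 antibodies, and the Protein-A control was not analysed here. Per the submitters' processing notes, Bowtie2, MACS2 and HOMER were used with GRCm38 (mm10), and versions and settings are not given in the sources used here. The deposited lists, called per library, give each peak the authors' fold enrichment (a linear ratio), −log10 p and q, and a score, each of them the peak's own value in its list. The smallest −log10 q was 1.3 in the SMAD2/3 and FOXL2 lists and 1 in the H3K27ac lists. HOMER tables named the nearest gene, per the file headers. Reads were single-end, 50 bases, per the labels' protocols.

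Peaks of an antibody's 4 libraries sharing at least 1 bp were merged (Python 3.11.15, pandas 2.3.3). Calls are presence per list and rank by −log10 q. The procedure was tested on simulated data. The members, gene lists and rules were chosen with earlier results of these data known. Values per library are given for the 12 strongest SMAD2/3 regions by rank, up to 5 regions found under 1 treatment, up to 6 shifted starts each way and the 5 genes with most FOXL2; other named regions were chosen after their values were seen. Promoter sequences are RefSeq's (GRCm38.p6), and 12 members had none. Motifs at SMAD2/3 summits were not searched, since no genome was used here.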

Additional observations from a re-analysis of the deposited data

How the results depend on the processing

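Of 99 alternative values over 12 results, 65 stayed within 1.5 times the reported count or within the interval of the reported share, and 34 did not, 18 of them with 1 library left out. Without 1 library the FOXL2 counts were 38 to 56 activin-only and 19 to 29 vehicle-only, and the FOXL2 share ranking higher was 41.1% to 43.1%. For H3K27ac they were 9 to 34, 6 to 23 and 40.2% to 51.9%. A rule on 3 libraries asks less than one on 4. Without 1 library SMAD2/3 gave 21 to 29 activin-only regions at 18 to 20 genes, overlaps were 84.4% to 91.7% with FOXL2 and 58.3% to 73.9% with H3K27ac, and starts in the deposited tables numbered 16 for H3K27ac and 7 to 8 for FOXL2. With the deposited start class, 28 and 16 starts were counted, and with RefSeq starts, an alternative chosen after seeing the data, 43 and 11. Under −log10 q of at least 5, H3K27ac had 4 activin-only and 3 vehicle-only regions, and overlap with it was 45%; with the vehicle H3K27ac lists it was 52.2%. With lists cut to equal length, activin-only regions numbered 1 for SMAD2/3 and 16 for FOXL2, and vehicle-only FOXL2 regions 14. With regions assigned to the nearest RefSeq start, also chosen after seeing the data, FOXL2 had 42 activin-only and 23 vehicle-only regions and H3K27ac 10 vehicle-only regions. By percentile within the whole list, the FOXL2 share was 38%. Where not set by the alternative's own construction, the cause was not tested. The unknown depth of each list limits all counts of presence.

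The replicate numbers were also used as a block, with activin set above vehicle within each same-numbered pair. The share ranking higher was then 40.5% for FOXL2 (31.9% of all regions) and 40.8% for H3K27ac (33.3%). The deviations of same-numbered libraries correlated at 0.16 for FOXL2 and -0.04 for H3K27ac over regions, with 2 pairs, so the samples were treated as sharing only a number.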
